A study of Homo sapiens with 12 samples.

Results

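The NF-kB subunit genes NFKB1, NFKB2, REL and RELB, the inhibitor genes NFKBIA, NFKBIB and NFKBIE, and the feedback or target genes TNFAIP3, BCL3 and BIRC3 were followed in Jurkat cells with and without the transcription factor ZNF683. These 10 genes were taken by symbol, and all 10 were listed in both deposited expression tables, out of 43805 genes that the tables share. Jurkat is a human line from an acute T cell leukaemia, and ZNF683, also called Hobit, is a zinc finger factor known from tissue-resident lymphocytes. The first table held 3 libraries of cells with a doxycycline-induced ZNF683 (called ZNF683 here) and 3 of Mock cells. The second held 3 libraries titled Hobit and Dox+ and 3 titled Hobit and Dox-. All cells were grown in RPMI with 10% FCS, and the agent that separated the groups of the second table was doxycycline at 1 ug/uL, per the labels. The labels do not say whether Mock cells received doxycycline, whether a line was 1 clone, or whether replicates were separate cultures. The p-values below therefore measure the spread between these libraries, which may be technical.

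NF-kB factors are dimers of RELA, REL, RELB and the processed products of NFKB1 (p50) and NFKB2 (p52). In resting cells the IkB proteins, encoded by NFKBIA, NFKBIB and NFKBIE, keep the dimers out of the nucleus. In T cells, stimulation of the antigen receptor or of TNF family receptors activates the IKK kinases, which mark IkB for destruction, and the released dimers bind kB sites in promoters. Among the genes they induce are those of their own inhibitors and brakes. NFKBIA resynthesises IkB-alpha, TNFAIP3 encodes the ubiquitin-editing enzyme A20, BIRC3 encodes the ubiquitin ligase cIAP2, and BCL3 encodes a nuclear IkB protein that binds p50 and p52 dimers.

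RefSeq promoter windows on GRCh38.p14, from 250 bases before to 50 after an annotated start, were held for 8 of the 10 genes and were searched on both strands for the kB consensus motif of 10 bases. All 8 genes had a match in at least 1 window, against 13.3% of the 27305 genes with a window, and 9 of their 12 windows had one, against 11.3% of 35116. A pair of matches or more lay in a window of 4 of the 8 genes, against 1.21% of all genes. The looser form GGGNNNNNCC was in a window of all 8 genes and of 61.7% of all genes. Of the stress genes described below, 0 of 9 had the consensus motif. The match nearest to the start of each gene is shown 5′ to 3′ in the direction of the gene, with the matched bases in capitals, to show the kind of site that NF-kB dimers bind. The members are known NF-kB genes, most of them known targets, so these shares describe a set chosen for that and are no independent finding.
NFKB1: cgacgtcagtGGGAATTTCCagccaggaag
NFKB2: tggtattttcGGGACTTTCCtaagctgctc
REL: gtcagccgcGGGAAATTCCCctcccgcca
NFKBIA: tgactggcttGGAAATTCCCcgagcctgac
NFKBIB: ggcgtggtgGGGAATTTCCCgcagggcgg
TNFAIP3: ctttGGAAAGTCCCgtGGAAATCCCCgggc
BCL3: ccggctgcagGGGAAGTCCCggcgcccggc
BIRC3: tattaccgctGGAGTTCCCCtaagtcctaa

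On GRCh38 the NFKB1 stretch is chr4:102501300-102501329, the NFKB2 stretch chr10:102395674-102395703 and the REL stretch chr2:60881518-60881546, all on the plus strand. The NFKBIA stretch is chr14:35404811-35404840 on the minus strand. On the plus strand, the NFKBIB stretch is chr19:38899932-38899960 and the TNFAIP3 stretch chr6:137867188-137867217. The BCL3 stretch is chr19:44748700-44748729 and the BIRC3 stretch chr11:102317339-102317368, both on the plus strand. In GENCODE v29 the matches of NFKB1, NFKBIA and BIRC3 lie outside the gene, that of NFKBIB lies in an intron, and those of NFKB2, REL, TNFAIP3 and BCL3 lie in an untranslated part of an exon of at least 1 transcript. Counted from 0 at the RefSeq start, the NFKB1 match ran from -49 to -40, the NFKBIA match from -81 to -72, and the pair in TNFAIP3 from -67 to -46. The BCL3 match, from 2 to 11, was the 1 shown that lay past the start. A match is a description of letters in the window, and no binding was measured here.

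**Figure D1:**
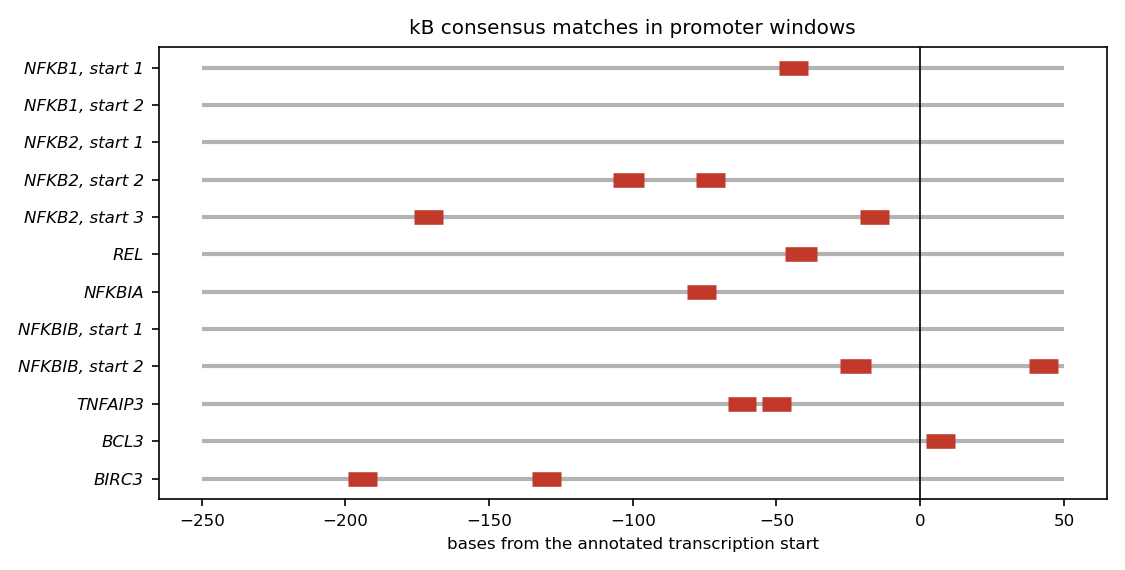
Places of the kB consensus motif (red blocks) in the RefSeq promoter windows of the members, drawn as grey lines over the distance in bases from the annotated start at 0. The 12 windows of 8 genes hold 14 matches after overlapping ones were merged, and 9 of the windows have at least 1.

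The values are TPM, a level corrected for transcript length whose sum is nearly fixed per library, so genes of a library can be compared but the read depth is unknown. Any very abundant transcript therefore pushes the values of the others down. The share of AL135790.1 was 50.7% for Dox- library 1 and 12.8% for Dox- library 2, against 6.65% to 10.5% for the 4 remaining libraries of the table. It was 4.94% to 7.96% in the table of ZNF683 and Mock cells. Each result was therefore also computed after median-of-ratios scaling, which divides a library by its typical ratio to the others; the factor was 0.583 for Dox- library 1 and 1.05 to 1.224 for the other 5. Dox- library 2 also stood apart, with correlations of log2(TPM + 1) of 0.898 to 0.920 with the other 5 libraries. ZNF683 itself was low everywhere, at 1.17, 1.76 and 1.04 TPM in ZNF683 libraries, against 0.715, 1.59 and 0.681 TPM in Mock libraries (two-sided exact permutation p = 0.5). It was at 0.453, 0.774 and 0.571 TPM in Dox+ libraries, against 0.115, 0.239 and 0.451 TPM in Dox- libraries (two-sided exact permutation p = 0.1, the smallest that 3 against 3 can give). The ZNF683 and Mock groups overlapped for this gene, while the Dox+ values lay above the Dox- values by a small margin. Whether transcripts of the induced construct are counted under this symbol is not given in the sources used here, so these values do not show how far ZNF683 was induced.
The cells carried T lineage transcripts: none of the 9 T cell markers was at 0 in any library, and their summed level was 3098 to 4588 TPM in 10 libraries, 1541 TPM in Dox- library 1 and 1482 TPM in Dox- library 2. After median-of-ratios scaling the sum was 2642 TPM in Dox- library 1, close to the 2625 TPM of Dox- library 3, and 1211 TPM in Dox- library 2, against 3262 to 3386 TPM in Dox+ libraries. Marker sums of other lineages were 10.4 to 58.7 TPM for 5 B cell genes, mostly CD79A, 1.67 to 9.48 TPM for 5 myeloid genes and 0.566 to 18.1 TPM for the stromal and epithelial genes, highest in Dox- library 2. In bulk RNA, fewer cells of a type and less RNA per cell cannot be told apart.

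NFKBIA and TNFAIP3 had the highest mean levels of the members in both tables, and BCL3 the lowest. In the ZNF683 and Mock table the order of mean levels was NFKBIA, TNFAIP3, NFKBIB, BIRC3, NFKB1, NFKB2, REL, NFKBIE, RELB and BCL3. The ranges over the 6 libraries were apart only between TNFAIP3 and NFKBIB, between BIRC3 and NFKB1 and between RELB and BCL3, so the other neighbours in this order did not differ beyond their spread. In the doxycycline table the order was TNFAIP3, NFKBIA, BIRC3, NFKBIB, NFKB2, NFKB1, NFKBIE, REL, RELB and BCL3, and the ranges of all neighbours overlapped. Within each library of that table, however, BIRC3 was above NFKBIB and RELB above BCL3. By median instead of mean, NFKBIA at 28.4 TPM was above TNFAIP3 at 27.9 TPM. RELA, the remaining subunit gene and a partner of p50, was at 47.2 to 58.0 TPM in the first table and 15.7 to 37.1 TPM in the second, above the 4 other subunit genes in every library.

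**Figure D2:**
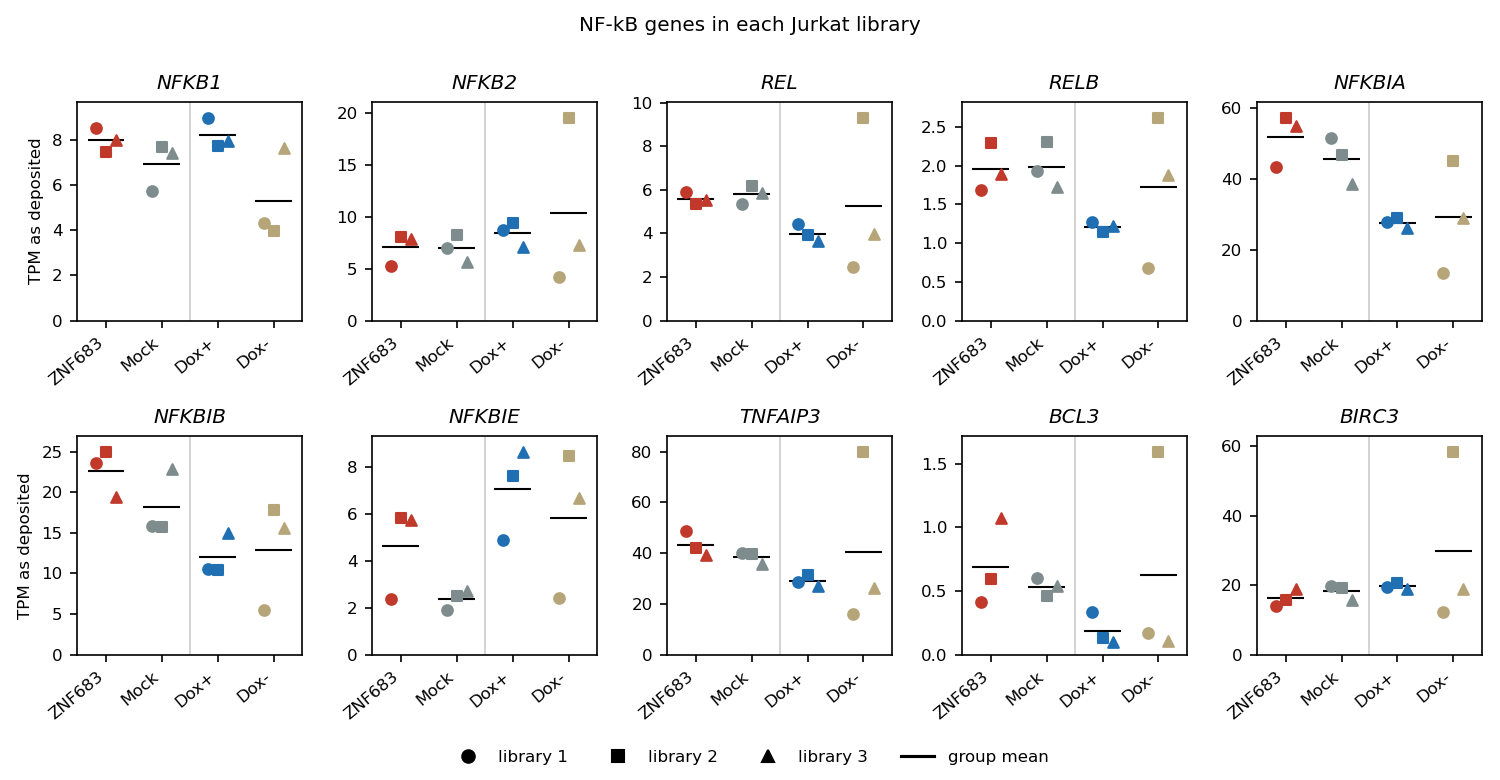
Level in TPM as deposited (y axis from 0, a scale of its own per gene) of the 10 members in the 3 libraries of each group, with symbols for library 1, 2 and 3 and a line at the group mean; the tables left and right of the grey line were deposited apart. The square of Dox- library 2 lies far above the other points for TNFAIP3, at 79.8 TPM, and for BIRC3, at 58.4 TPM, and the ZNF683 and Mock points lie close together for most genes.

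With ZNF683 against Mock, none of the 9 members that could be tested changed past the threshold. The test was limma's on log2(TPM + 1) for genes averaging 1 TPM or more in a table, with Benjamini-Hochberg adjustment over all 16588 genes and a threshold of 0.05. Over all genes, 5 (0.0301%) were called, so a count of 0 among 9 members says little on its own. At an unadjusted p under 0.05 there was 1 of the 9, NFKBIE, against 13.0% of all genes. The median log2 change of the members was 0.17, with 6 of 9 positive, against 0.03 and 54.9% positive over all genes. BCL3, under 1 TPM on average, was not tested in either table.

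The p50 precursor gene NFKB1 had 8.51, 7.48 and 7.98 TPM in ZNF683 libraries, against 5.73, 7.66 and 7.43 TPM in Mock libraries. No member had groups apart as deposited, where 17.2% of all genes did. The NFKB1 groups overlapped through ZNF683 library 2 and Mock library 2, and the log2 change was 0.19 ± 0.13 (SE; limma adjusted p = 0.525). After median-of-ratios scaling the NFKB1 groups were apart, which held for 19.0% of all genes. The p52 precursor gene NFKB2 had 5.22, 8.09 and 7.89 TPM with ZNF683, against 6.96, 8.28 and 5.66 TPM in Mock cells. The values interleaved, and its log2 change was 0.01 with a 95% interval of -0.42 to 0.44. REL, the c-Rel gene used by activated lymphocytes, was at 5.90, 5.34 and 5.54 TPM with ZNF683, against 5.35, 6.18 and 5.87 TPM in Mock cells. RELB, the subunit gene of the non-canonical branch, was at 1.68, 2.30 and 1.90 TPM with ZNF683, against 1.93, 2.31 and 1.72 TPM in Mock cells. Both pairs of groups overlapped nearly fully, with log2 changes of -0.04 ± 0.11 for REL and -0.02 ± 0.15 for RELB, both of which turned positive, to 0.001 and 0.02, after median-of-ratios scaling.

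Among the inhibitors, NFKBIE, the IkB-epsilon gene, had the largest shift of the 9 tested members, without passing the threshold. It was at 2.38, 5.82 and 5.76 TPM in ZNF683 libraries, against 1.90, 2.53 and 2.71 TPM in Mock libraries. ZNF683 libraries 2 and 3 were more than 2-fold above the median of the other 5 libraries, a share of 1.11% and 1.59% of all genes in those libraries, while ZNF683 library 1 lay inside the Mock range. The mean was 4.65 ± 1.97 TPM with ZNF683 and 2.38 ± 0.422 TPM in Mock cells (SD, n = 3 each), a log2 change of 0.68 ± 0.27 with a 95% interval of 0.055 to 1.304 (limma adjusted p = 0.365). NFKBIE was positive under every alternative run, with log2 changes of 0.51 to 1.02 and limma adjusted p of 0.0803 to 0.782. NFKBIA was at 43.5, 57.3 and 54.9 TPM with ZNF683, against 51.6, 46.7 and 38.5 TPM in Mock cells, with overlapping groups and a log2 change of 0.18 ± 0.15. NFKBIB, the IkB-beta gene, was at 23.6, 24.9 and 19.4 TPM with ZNF683, against 15.8, 15.7 and 22.9 TPM in Mock cells. Mock library 3 was as high as the ZNF683 libraries, and the NFKBIB log2 change was 0.32 ± 0.17 (limma adjusted p = 0.43). In GENCODE v29, exons of NFKBIB share bases with SIRT2 on the opposite strand, and those of TNFAIP3 with AL357060.1, so reads of these partners cannot be told apart without strand. REL likewise shares exon bases with AC010733.2, and BCL3 with MIR8085, on the same strand.

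The feedback genes did not pass either. TNFAIP3 had 48.9, 42.1 and 39.1 TPM with ZNF683, against 39.9, 39.8 and 35.8 TPM in Mock cells; 2 ZNF683 values were above all Mock values and the log2 change was 0.17 ± 0.11 (limma adjusted p = 0.518). BIRC3 had 14.1, 15.8 and 18.9 TPM with ZNF683, against 19.8, 19.4 and 15.8 TPM in Mock cells, a log2 change of -0.16 ± 0.14 with overlapping groups. BCL3 had 0.412, 0.593 and 1.07 TPM with ZNF683, against 0.603, 0.462 and 0.540 TPM in Mock cells, and the highest and the lowest of these 6 values were both ZNF683 libraries. For NFKBIA the 95% interval of the log2 change ran from -0.16 to 0.53, and for TNFAIP3 from -0.10 to 0.43. These intervals rest on the spread between these libraries, which may be technical. How far ZNF683 was induced is not shown, so they do not bound an effect of ZNF683.

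**Figure D3:**
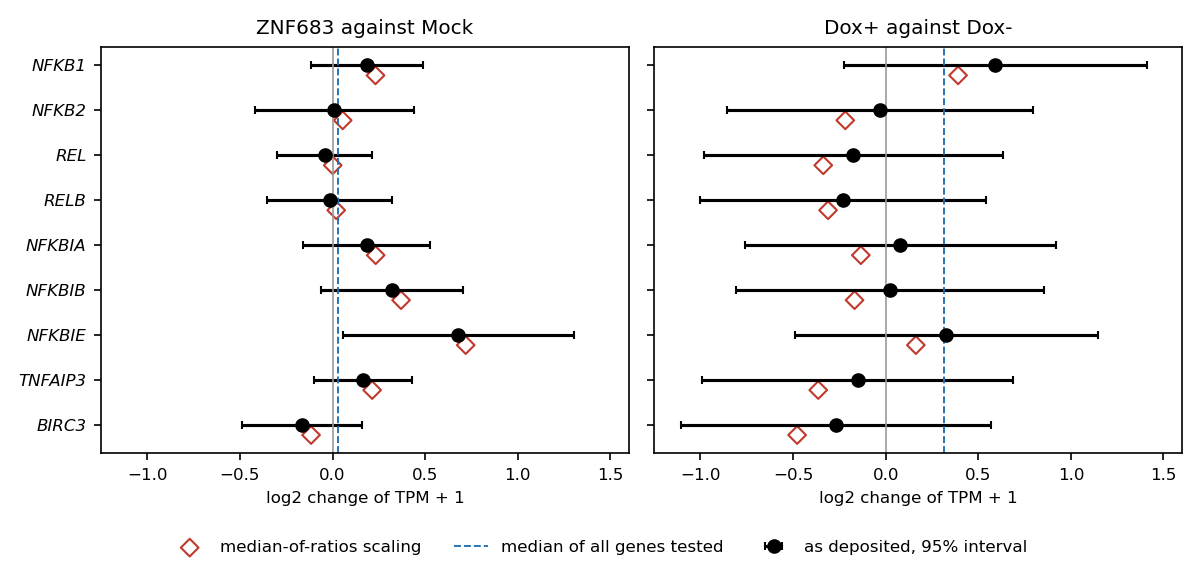
Log2 change of TPM + 1 (x axis) of the 9 tested members for ZNF683 against Mock (left) and Dox+ against Dox- (right), as black points with 95% intervals; red diamonds are the values after median-of-ratios scaling and the dashed line is the median of all genes tested. The interval of NFKBIE on the left, 0.055 to 1.304, is the only 1 as deposited that leaves out 0, and the intervals on the right are wider for every member.

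With Dox+ against Dox-, again none of the 9 members tested passed, where 60 of 15148 genes (0.396%) were called. At an unadjusted p under 0.05 there were 0 of 9 members, against 6.34% of all genes. The median log2 change of the members was -0.03, with 4 of 9 positive, where all genes had a median of 0.32 and 79.1% positive values. After median-of-ratios scaling the members' median was -0.22, with 2 of 9 positive, against 0.13 and 64.3% for all genes.

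NFKB1 had the highest change. It was at 8.97, 7.73 and 7.94 TPM in Dox+ libraries, against 4.30, 3.97 and 7.62 TPM in Dox- libraries, so the groups did not overlap. It was the 1 member of 9 for which this held, against 8.8% of all genes. The log2 change was 0.59 ± 0.42 with a 95% interval of -0.23 to 1.41 (limma adjusted p = 0.737). After median-of-ratios scaling Dox- library 1 moved to 7.37 TPM, inside the Dox+ range of 6.90 to 7.84 TPM, and the groups of all 9 members overlapped, while those of 13.1% of all genes were apart. Without Dox- library 3, NFKB1 passed with a log2 change of 0.84 (limma adjusted p = 0.0472), in a fit that called 2779 genes; without both Dox- library 1 and Dox- library 2 its change was 0.09.

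The other subunit genes differed in where Dox- library 2 lay. NFKB2 was at 8.76, 9.44 and 7.12 TPM in Dox+ libraries, against 4.20, 19.5 and 7.27 TPM in Dox- libraries. REL was at 4.43, 3.91 and 3.65 TPM in Dox+ libraries, against 2.47, 9.31 and 3.99 TPM in Dox- libraries. RELB was at 1.27, 1.14 and 1.23 TPM in Dox+ libraries, against 0.679, 2.62 and 1.89 TPM in Dox- libraries. In all 3, the lowest and the highest of the 6 values were Dox- libraries 1 and 2, and the Dox+ values lay between them. The log2 change was -0.03 ± 0.42 for NFKB2, -0.17 ± 0.41 for REL and -0.23 ± 0.39 for RELB, and the limma adjusted p of the 9 members lay between 0.737 and 0.985. Without Dox- library 2 they turned to 0.52, 0.26 and 0.01 as deposited. With median-of-ratios scaling as well, they were 0.16, -0.06 and -0.18, so REL and RELB stayed negative.

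For all 3 inhibitor genes Dox- library 1 was the lowest of 6 as deposited. It was the lowest for 8 of the 9 tested members. Over all genes, its median ratio to the median of the other 5 libraries was 0.503, so a low value there is not particular to the inhibitors. NFKBIA was at 27.9, 28.9 and 26.2 TPM in Dox+ libraries, against 13.4, 45.0 and 28.99 TPM in Dox- libraries. NFKBIB was at 10.6, 10.4 and 14.9 TPM in Dox+ libraries, against 5.45, 17.8 and 15.6 TPM in Dox- libraries. NFKBIE was at 4.88, 7.63 and 8.65 TPM in Dox+ libraries, against 2.41, 8.47 and 6.68 TPM in Dox- libraries. For NFKBIE the highest of the 6 values was a Dox+ library, and for NFKBIA and NFKBIB it was Dox- library 2. The log2 changes were 0.08 ± 0.43, 0.03 ± 0.42 and 0.33 ± 0.42; after median-of-ratios scaling those of NFKBIA and NFKBIB became -0.13 and -0.17, so neither has a direction here.

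Of the feedback genes, TNFAIP3 was at 28.7, 31.4 and 27.1 TPM in Dox+ libraries, against 15.9, 79.8 and 26.1 TPM in Dox- libraries. BIRC3 was at 19.6, 20.7 and 19.0 TPM in Dox+ libraries, against 12.2, 58.4 and 19.0 TPM in Dox- libraries. BCL3 was at 0.336, 0.132 and 0.09998 TPM in Dox+ libraries, against 0.172, 1.59 and 0.110 TPM in Dox- libraries. In each of these genes Dox- library 2 was above the other 5. After median-of-ratios scaling it was at 65.2 TPM of TNFAIP3, against 22.2 to 28.0 TPM in the other 5, and at 47.7 TPM of BIRC3, against 16.1 to 20.9 TPM. The log2 changes were -0.15 ± 0.43 for TNFAIP3 and -0.27 ± 0.43 for BIRC3. Without Dox- library 2 they were 0.49 and 0.36 as deposited, and 0.09 and -0.04 with median-of-ratios scaling as well. The means were 29.1 ± 2.21 TPM in Dox+ cells and 40.6 ± 34.3 TPM in Dox- cells for TNFAIP3 (SD, n = 3 each), and the SD of the Dox- libraries was larger than the difference.

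Whether a member moved differently in the 2 comparisons was tested by a contrast in 1 fit of the 12 libraries, with both effects taken within tables. None of the 9 members passed, where 2 of 14468 genes (0.0138%) did. The difference of the ZNF683 effect minus the doxycycline effect ran from -0.41 ± 0.37 for NFKB1 to 0.35 ± 0.51 for NFKBIE (SE; limma adjusted p of 0.876 or more for every member). NFKBIE was positive in both tables, at 0.68 and 0.33, and BIRC3 negative in both, at -0.16 and -0.27, without a call in either.

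The pattern that stood out among the members was that of a single library, Dox- library 2, described here without a test because it was 1 library picked after its values were seen. Of the 9 tested members, 5 were at least 2-fold above the median of the other 5 libraries, against 14.7% of all genes, and 4 after median-of-ratios scaling, against 11.4%. The ratio to that median was 3.08 for BIRC3, 2.95 for TNFAIP3, 2.69 for NFKB2, 2.38 for REL and 2.14 for RELB. It was 1.68 for NFKBIB, 1.62 for NFKBIA and 1.27 for NFKBIE, and 12.02 for BCL3, which was under 1 TPM in the other 5. NFKB1 went the other way, with a ratio of 0.513, and was the lowest of the 6 libraries, as were 16.4% of all genes. Dox- library 2 was the highest of 6 for 7 of 9 members, against 32.1% of all genes. In Dox- library 1, 4 of 9 members were at least 2-fold below the median of the others as deposited, against 48.7% of all genes, and 0 of 9 after scaling, against 2.34%.

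Ratios of genes within a library do not depend on its scaling. NFKB2 over NFKB1 was 4.92 in Dox- library 2, against 0.613 to 1.2202 in the remaining 11 libraries. TNFAIP3 over RELA was 2.40 against 0.693 to 1.01, and BIRC3 over its neighbour gene BIRC2, which encodes cIAP1, was 1.57 against 0.249 to 0.441. REL over RELA was 0.280 against 0.0938 to 0.157, and NFKBIA over RELA 1.36 against 0.745 to 1.16. RELB over RELA was 0.0788 against 0.0290 to 0.0509. The ratios between inhibitor genes did not set the library apart: NFKBIB over NFKBIA was 0.395, within the 0.307 to 0.595 of the others, and NFKBIE over NFKBIA was 0.188, within 0.0369 to 0.331. Dox- library 2 was thus outside the range of the others for 6 of the 8 ratios computed. The pairs were picked by hand, and no share over all pairs of genes was computed. Single genes were often extreme in this library, which was the highest of 6 for 32.1% and the lowest for 16.4% of all genes. The count of ratios is therefore a description and no result about the members.

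**Figure D4:**
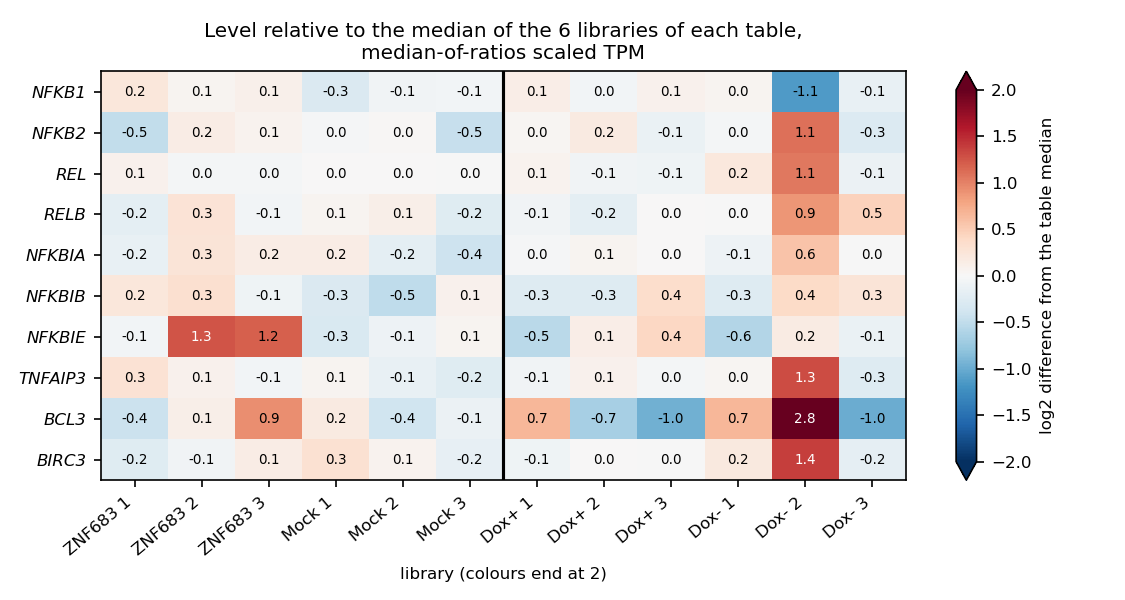
Log2 difference of each member (rows) in each library (columns) from the median of the 6 libraries of its table, on median-of-ratios scaled TPM; red is above and blue below that median, and the colours end at 2. The column of Dox- library 2 holds the highest value of its table for TNFAIP3, BIRC3, NFKB2, REL, RELB, NFKBIA, NFKBIB and BCL3 and the lowest for NFKB1, and NFKBIE is high in ZNF683 libraries 2 and 3.

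The same library carried a strong stress signature. The summed level of 9 stress genes was 4757 TPM in Dox- library 2, against 111 to 320 TPM elsewhere in that table. These were the heat shock genes HSPA1A, HSPA1B, HSPA6 and DNAJB1, and DDIT3, ATF3, PPP1R15A, JUN and FOS. All 9 were at least 2-fold above the median of the other 5 libraries there, against 14.7% of all genes. In that table HSPA6, HSPA1A and FOS averaged 1 TPM or more only through Dox- library 2. Their counts and tests for Dox+ against Dox- therefore rest on that library and give no separate support. HSPA6 was at 637 TPM, against 0.351 TPM or less in the other 5. In the fit of Dox+ against Dox-, HSPA6, HSPA1A and HSPA1B passed as lower on overlapping groups, with log2 changes of -2.99, -1.68 and -1.76 (limma adjusted p = 4.71e-10, 0.00782 and 0.0131). Without Dox- library 2 these changes were 0.019, -0.03 and 0.46, and after median-of-ratios scaling none of the 3 passed (limma adjusted p = 0.688 each). With robust moderation none of the 3 passed either (limma adjusted p = 0.753, 0.751 and 0.783). The fit as deposited used the spread typical of a gene's level, not that of each of these genes. HSPA1A and HSPA1B are near-identical copies, so the split of reads between them is uncertain. In the ZNF683 and Mock table the stress sum was 284 to 377 TPM with ZNF683 and 306 to 375 TPM in Mock cells, while HSPA6 fell with ZNF683 (0.515, 0.399 and 0.618 TPM, against 6.85, 5.88 and 4.06 TPM in Mock cells; limma adjusted p = 0.0105). HSPA6 missed the threshold there without ZNF683 library 2, Mock library 1 or Mock library 2 (limma adjusted p = 0.0947, 0.0597 and 0.079). The part of this stress signature, of the T cell marker level and of the stromal gene COL1A1, at 17.0 TPM in Dox- library 2 and 1.12 TPM or less in the others, in the NF-kB values of that library was not tested.

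Other genes of the pathway were read from lists by role. Upstream, no member of the IKK and kinase list (10 genes), the T cell receptor branch (4), the TNF receptor branch (8) or the ubiquitin ligases and brakes (8) passed in either comparison, and none of RELA and NFKBID did. Over all genes 0.0301% were called for ZNF683 against Mock and 0.396% for Dox+ against Dox-, so these counts of 0 say little. With ZNF683 against Mock, 9 of 10 IKK and kinase genes were positive, with a median log2 change of 0.14. Over all genes 54.9% were positive, with a median of 0.03. CHUK, the IKK-alpha gene, was at 23.7, 31.7 and 26.6 TPM with ZNF683, against 16.6, 16.4 and 21.5 TPM in Mock cells, with groups apart and a log2 change of 0.56 ± 0.15 (limma adjusted p = 0.283). TRAF3, an adaptor that restrains the non-canonical branch, was at 7.72, 9.82 and 8.67 TPM with ZNF683, against 4.83, 5.25 and 6.06 TPM in Mock cells. Its groups were also apart, as were those of 17.2% of all genes. Its log2 change of 0.61 ± 0.13 had the smallest adjusted p of the pathway lists in this comparison (limma adjusted p = 0.261). CHUK and TRAF3 were named for a small p within their lists, so groups that lie apart are no separate support. TNIP2, which encodes an A20-binding protein, had a log2 change of 0.35 ± 0.13 (limma adjusted p = 0.352). In the T cell receptor branch, PRKCQ, which encodes the kinase PKC-theta, had 0.14 ± 0.12. RIPK1, the adaptor kinase of the TNF receptor complex, had 0.35 ± 0.15, on overlapping groups.

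With Dox+ against Dox-, all 10 IKK and kinase genes were positive, where 79.1% of all genes were. Their median log2 change was 0.41, close to the 0.32 of all genes. RIPK1 was at 9.99, 11.1 and 11.4 TPM in Dox+ libraries, against 4.37, 1.66 and 11.8 TPM in Dox- libraries, a log2 change of 1.05 ± 0.42 with overlapping groups (limma adjusted p = 0.579). IKBKE, the gene of an IKK-related kinase, was at 16.7, 19.4 and 20.4 TPM in Dox+ libraries, against 6.36, 7.62 and 18.8 TPM in Dox- libraries (log2 change 0.88 ± 0.42, limma adjusted p = 0.737). For both genes as deposited, Dox- libraries 1 and 2 were low and Dox- library 3 was at the Dox+ level. In Dox- library 1, 48.7% of all genes were at least 2-fold below the median of the others as deposited. TRAF5 and SHARPIN, a TNF family receptor adaptor and a part of the linear ubiquitin ligase, had log2 changes of 0.91 ± 0.43 and 0.60 ± 0.43. After median-of-ratios scaling the log2 changes were 0.835 for RIPK1, 0.668 for IKBKE, 0.689 for TRAF5 and 0.381 for SHARPIN.

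Of 22 inducible NF-kB targets outside the members, 13 averaged 1 TPM or more in each table. None of the 13 passed in either comparison, where 0.0301% and 0.396% of all genes did. With ZNF683 against Mock, 6 of 13 were positive and the median log2 change was -0.01, against 54.9% and 0.03 over all genes. CD83, a surface activation marker, was at 32.7, 32.4 and 28.6 TPM with ZNF683, against 22.1, 24.3 and 25.9 TPM in Mock cells, with groups apart (log2 change 0.36 ± 0.11, limma adjusted p = 0.3). In this comparison 17.2% of all genes had groups apart. CCR7, the chemokine receptor gene of lymph node homing, was at 5.22, 5.58 and 4.31 TPM with ZNF683, against 3.10, 3.63 and 3.74 TPM in Mock cells (log2 change 0.42 ± 0.13, limma adjusted p = 0.317). IER3, an early response gene, had -0.24 ± 0.15. With Dox+ against Dox-, 9 of 13 were positive and the median was 0.32, against 79.1% and 0.32 over all genes. GADD45B, a stress and survival gene, was at 5.18, 5.58 and 5.53 TPM in Dox+ libraries, against 3.52, 138 and 6.34 TPM in Dox- libraries. As deposited its groups overlapped, with a log2 change of -1.37 ± 0.42 (limma adjusted p = 0.176). After median-of-ratios scaling its Dox- values all lay above its Dox+ values, where 13.1% of all genes had groups apart. Its scaled log2 change was -1.54 (limma adjusted p = 0.688). IRF1, an interferon response factor gene, was at 106, 106 and 93.4 TPM in Dox+ libraries, against 39.9, 38.8 and 87.6 TPM in Dox- libraries, with groups apart (log2 change 0.97 ± 0.43, limma adjusted p = 0.722). As deposited, 8.8% of all genes had groups apart. After median-of-ratios scaling the IRF1 log2 change was 0.742.

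In Dox- library 2 other pathway genes lay on both sides of the median. Of the 13 inducible targets, 4 were at least 2-fold above the median of the other 5 libraries and 5 at least 2-fold below, where 14.7% and 16.8% of all genes were. GADD45B, the kinase gene MAP3K8 and IER3 were 25.0, 4.94 and 4.61 times that median. The survival gene BCL2L1, CCR7, CD83, IRF1 and the cytokine gene LTA were 0.338, 0.340, 0.373, 0.415 and 0.454 times. TRAF1, the remaining gene of the 4 above, was at 2.22 TPM, against 0.509 to 1.18 TPM in the other 5 libraries. It averaged 1 TPM or more in that table only through Dox- library 2, so its place in the count gives no separate support. RELA, at 33.2 TPM against 15.7 to 37.1 TPM in the others, was 0.958 times the median. None of the 10 IKK and kinase genes was 2-fold higher and 1, IKBKE, was 2-fold lower. In the TNF receptor branch RIPK1, TRAF5 and TRADD were at 0.150, 0.251 and 0.430 times. Of the 18 inducible targets with a promoter window, 9 had the kB consensus motif, against 8 of 8 members, and motif and level were not tested against each other.

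**Figure D5:**
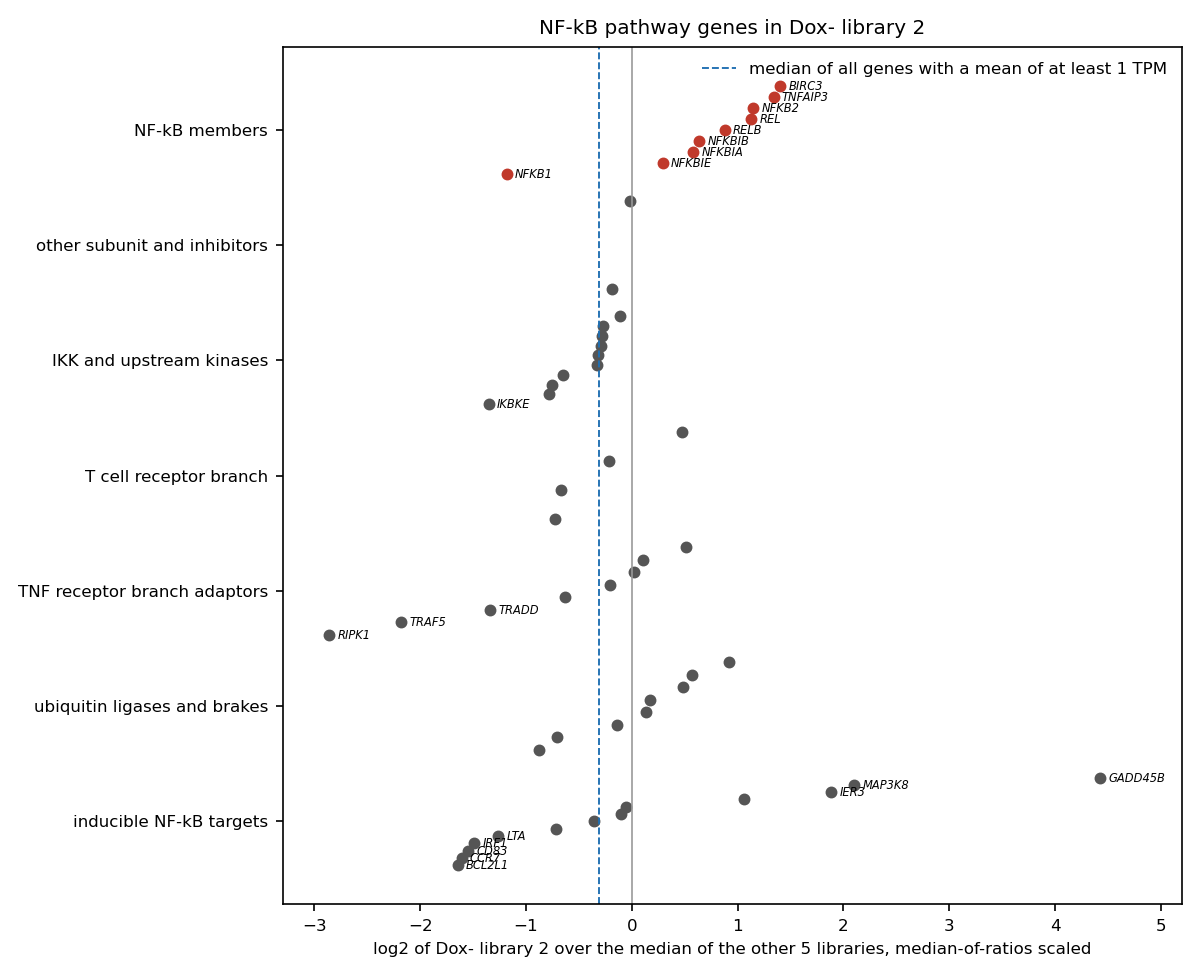
Log2 ratio (x axis) of Dox- library 2 to the median of the other 5 libraries of its table for genes averaging 1 TPM or more, by pathway list, after median-of-ratios scaling; members are red, and the dashed line is the median of all genes. All members but NFKB1 lie right of 0, most IKK and kinase genes lie near the dashed line, and GADD45B and RIPK1 lie farthest to the right and left.

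The genes nearest in profile to NFKBIA and TNFAIP3 were found over the 12 libraries among 9633 genes averaging 5 TPM or more in both tables, as the root mean square difference of log2(TPM + 1) after centring each gene within its table. For NFKBIA, whose own profile had a root mean square of 0.374, they were APLP1, DBP, RIT1, RNF113A and NSD3, at 0.106 to 0.115. For TNFAIP3, at 0.487, they were NAPB, LIMD1, SETD5, PIBF1 and NBPF19, at 0.0926 to 0.109. None of these 10 genes is a member or in a pathway list. All 10 were highest in Dox- library 2 within the doxycycline table, as were 32.1% of all genes. NAPB was at 27.6 TPM against 5.12 to 10.9 TPM, and SETD5 at 151 TPM against 27.7 to 56.6 TPM in the other 5. The choice used that library, where NFKBIA and TNFAIP3 were also highest, so this peak was largely set in advance. With that library dropped after the centring, the 5 genes ranked 1 to 14 for NFKBIA and 2 to 10 for TNFAIP3 among the 9633. The centring still used Dox- library 2, so these ranks are not free of it and are no separate check. The points share their library and its scaling.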

How the data were processed

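Titles and genotype labels gave the groups. The authors deposited 2 tables of TPM per gene symbol, 55514 genes for ZNF683 and Mock and 44389 for Dox+ and Dox-, with library sums of 992727 to 998497. RNA was extracted with an RNeasy kit and libraries were made with a NEBNext low-input kit, per the labels' protocols. Tools named in the submitters' processing notes, without a role, are DESeq2 1.22.2 and kallisto 0.46.0. The genome build was not given in the sources used here, nor was the annotation. TPM holds no counts, so no count model and no counting interval was used, and depth is unknown.

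Genes averaging 1 TPM or more over a table's 6 libraries entered limma 3.58.1 as log2(TPM + 1) (R 4.3.3; moderated test with a mean-variance trend, two-sided, Benjamini-Hochberg over all genes, threshold 0.05). A change on this scale understates that of low genes. In the doxycycline table limma's prior degrees of freedom were unlimited, so tests there used the spread typical of a gene's level, not its own. Errors of log2 changes are standard errors, and intervals are 95%. Alternatives were median-of-ratios scaling, AL135790.1 left out, a pseudocount of 0.1, no filter, a mean of at least 5 TPM, robust moderation, a replicate block and leaving out libraries. The fit was tested on simulated data. With 3 libraries a group, the smallest exact permutation p is 0.1.

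Members and lists were chosen with earlier results of these data known. All members are named; of each list, genes with the smallest p. Gene positions and overlaps are from GENCODE v29 and promoters from RefSeq (GRCh38.p14). The values of 2-fold and rank in single libraries were computed with pandas 2.3.3 and exact tests with scipy 1.17.1.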

Additional observations from a re-analysis of the deposited data

How the results depend on the processing

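No member was called in either comparison under any alternative, except NFKB1 without Dox- library 3, so leaving out 1 library gave 0 to 1 called members for Dox+ against Dox-. The count over all genes was less stable. For ZNF683 against Mock the 5 called genes became 3 with a pseudocount of 0.1, 0 without a filter, 0 at a mean of at least 5 TPM, 8 with robust moderation and 0 to 47 when leaving out 1 library. For Dox+ against Dox- the 60 became 1 after median-of-ratios scaling, 0 without AL135790.1, 0 without a filter, 15 at a mean of at least 5 TPM, 23 with robust moderation, 0 to 2779 when leaving out 1 library, 0 without Dox- libraries 1 and 2, and 1 when scaled without Dox- library 2; the last pair was chosen after seeing the data. The cause was not tested. With the replicate number as a block, 0 and 34 genes were called. Titles of the second table share numbers, as in Hobit-1 Dox+ and Hobit-1 Dox-, but the labels do not say that a number marks a pair. The correlations of same-numbered deviations were -0.25 to 0.07 in the first table and 0.06 to 0.36 in the second. All 3 of the second were positive, but not all were over 0.1, and Dox+ library 1 correlated best with Dox- library 2. The libraries were therefore not treated as paired, though with 3 libraries a group these correlations cannot exclude pairing. The block changed no call of a member. HSPA6 lost its call with ZNF683 at limma adjusted p = 0.0716 with the block and 0.105 without a filter.

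Signs of small changes turned. With ZNF683 against Mock, NFKB2 became -0.011 without AL135790.1 and ran from -0.11 to 0.19 when leaving out 1 library; REL became 0.001 and RELB 0.02 after scaling, and RELB ran from -0.10 to 0.061. With Dox+ against Dox-, leaving out 1 library gave -0.47 to 0.52 for NFKB2, -0.52 to 0.26 for REL, -0.55 to 0.008 for RELB, -0.38 to 0.46 for NFKBIA, -0.46 to 0.31 for NFKBIB, -0.11 to 0.62 for NFKBIE, -0.64 to 0.49 for TNFAIP3 and -0.73 to 0.36 for BIRC3, and -4.56 to 0.019 for HSPA6 and -3.12 to 0.46 for HSPA1B. Scaling gave -0.13 for NFKBIA and -0.17 for NFKBIB, and leaving out AL135790.1 gave -0.21 and -0.25. Without Dox- libraries 1 and 2 the changes were 0.18 for NFKB2, -0.07 for NFKBIA, -0.37 for NFKBIB, 0.15 for TNFAIP3 and 0.06 for BIRC3; scaled without Dox- library 2, they were 0.16 for NFKB2, -0.052 for NFKBIB and 0.092 for TNFAIP3, and 0.13 for HSPA1B. For the members, 8 of 115 and 22 of 133 alternative values had the opposite sign.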
